A study of Mus musculus with 16 samples.

Results

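The livers of young Trim28MommeD9/+ mice and their wild-type littermates were compared for 10 genes that make bile acids, conjugate them, move them across the hepatocyte membrane and sense them. The members were chosen by gene symbol, and each of the 10 symbols had at least 1 probe, which gave 12 of the 25697 probes on the array. Cyp27a1 had 3 probes and every other member had 1. Of the 16593 gene symbols on the array, 7302 were detected on at least 3 arrays and tested, and 9 members were among them.

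Liver RNA of 4-week-old male FVB/NJ mice was hybridized to 16 bead arrays, 7 of them from mice heterozygous for the MommeD9 allele of Trim28 and 9 from Trim28+/+ littermates. The allele is a chemically induced splice-site mutation of the germline, and both genotypes come from an inbred line that carries a GFP transgene. The study describes 4 mice per genotype with technical replicates and does not say which arrays share a mouse, so arrays are the unit of every test, and p-values are too small wherever arrays share one. Levels are log2 intensities after background correction and quantile normalization, and differences are Trim28MommeD9/+ minus Trim28+/+ from limma, called at an adjusted p under 0.05.

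Bile acids are made from cholesterol in hepatocytes, which are the main cell of the liver. In the classical route, Cyp7a1 carries out the first and rate-limiting step and Cyp8b1 adds the hydroxyl group that yields cholic acid, while an alternative route runs through Cyp27a1 and Cyp7b1. Slc27a5 and Baat then conjugate the acids, Abcb11 pumps the conjugates into bile, and Slc10a1 brings them back from portal blood. The bile acid receptor FXR, encoded by Nr1h4, induces the repressor SHP, encoded by Nr0b2, and both restrain synthesis.

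Trim28, the mutated gene, was lower on the Trim28MommeD9/+ arrays (8.62 ± 0.07, SD, n = 7 arrays) than on the Trim28+/+ arrays (9.06 ± 0.23, SD, n = 9 arrays), with 5 of 7 below every Trim28+/+ array (log2 fold change -0.44, standard error 0.09, adjusted p = 0.00277 from limma). The constant that had been subtracted from each array in the scaled values of the authors, a measure of background, was 37.6 to 40.3 on the Trim28MommeD9/+ arrays, 42.7 on Trim28+/+ replicate 1 and 48.8 to 56.2 on the other 8 Trim28+/+ arrays. Genotype and background can therefore be separated by Trim28+/+ replicate 1 alone, and its value is given for each member tested. That array also stood apart from the rest, with 10262 probes detected against 9186 to 9630 on the other 15 arrays, and its mean intensity of 317 lay within the range of the other Trim28+/+ arrays (273 to 344). Each value with background sets as a block rests on it. Of 10 hepatocyte markers, 8 were tested, with 0 higher and 4 lower, and Tat and Fabp1 did not reach the detection threshold at their probes. The summed linear intensity of the 8 tested was 60121 to 63684 on the Trim28MommeD9/+ arrays and 60984 to 69439 on the Trim28+/+ arrays. Of 5 Kupffer cell markers tested, 2 were higher and 0 lower, with sums of 1228 to 1557 against 1003 to 1254. Of 7 endothelial and stellate cell markers tested, 1 was higher and 0 lower. Of 2 pancreas markers tested, 0 were higher and 1 lower. The 2 blood cell markers and the 1 gut marker tested were not called, and 0 adipocyte markers were tested. Over all 7302 genes, 10.4% were called higher and 11.4% lower. The 4 cholangiocyte markers on the array (Krt19, Krt7, Sox9 and Cftr) had no probe detected on 3 or more arrays. The part of these markers in the results below was not tested, and in whole liver fewer cells of a type and less RNA per cell cannot be told apart.

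Of the 9 members tested, 4 were lower in Trim28MommeD9/+ livers (Baat, Slc10a1, Abcb11 and Nr1h4), 1 was higher (Slc27a5), and Cyp7a1, Cyp8b1, Cyp7b1 and Cyp27a1 did not pass the test. Over all 7302 genes 11.4% were called lower and 10.4% higher. The median log2 fold change was -0.33 over the 9 members, -0.31 over the 8 hepatocyte markers tested and 0.05 over all genes. The members called lower belong to conjugation, transport and sensing, and no synthesis enzyme among the members was called. This is a split of calls and not of sizes. Cyp7a1 (-0.68) and Cyp7b1 (-0.39) had larger estimates than Nr1h4 (-0.20), and both were called lower with scaling to a common median. Cyp8b1 (0.36) and Cyp27a1 (0.15) had estimates above zero. Slc10a1 entered the test through the Trim28+/+ arrays, since its probe was detected on 2 of 7 Trim28MommeD9/+ arrays and 9 of 9 Trim28+/+ arrays. Among the 8 members detected on all 16 arrays, 3 were lower and 1 was higher, beside 10.6% and 11.4% of the 5950 genes so detected, and the median was -0.27. With presumptive technical pairs, which are arrays of a genotype joined by likeness and entered as a random block (correlation 0.527), 0 members were higher and 1 was lower, Baat (adjusted p = 0.0289 from limma), beside 2.41% and 4.26% of all genes. When background sets were a block, 0 members were called in limma, beside 0.0274% higher and 0.0137% lower of all genes, and 3 members, Cyp7a1, Cyp7b1 and Nr1h4, had an unadjusted p under 0.05. Without Trim28+/+ replicate 1 the same 4 members were lower and 2 were higher, Slc27a5 and Cyp8b1, beside 13.3% and 13.4% of all genes.

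**Figure D1:**
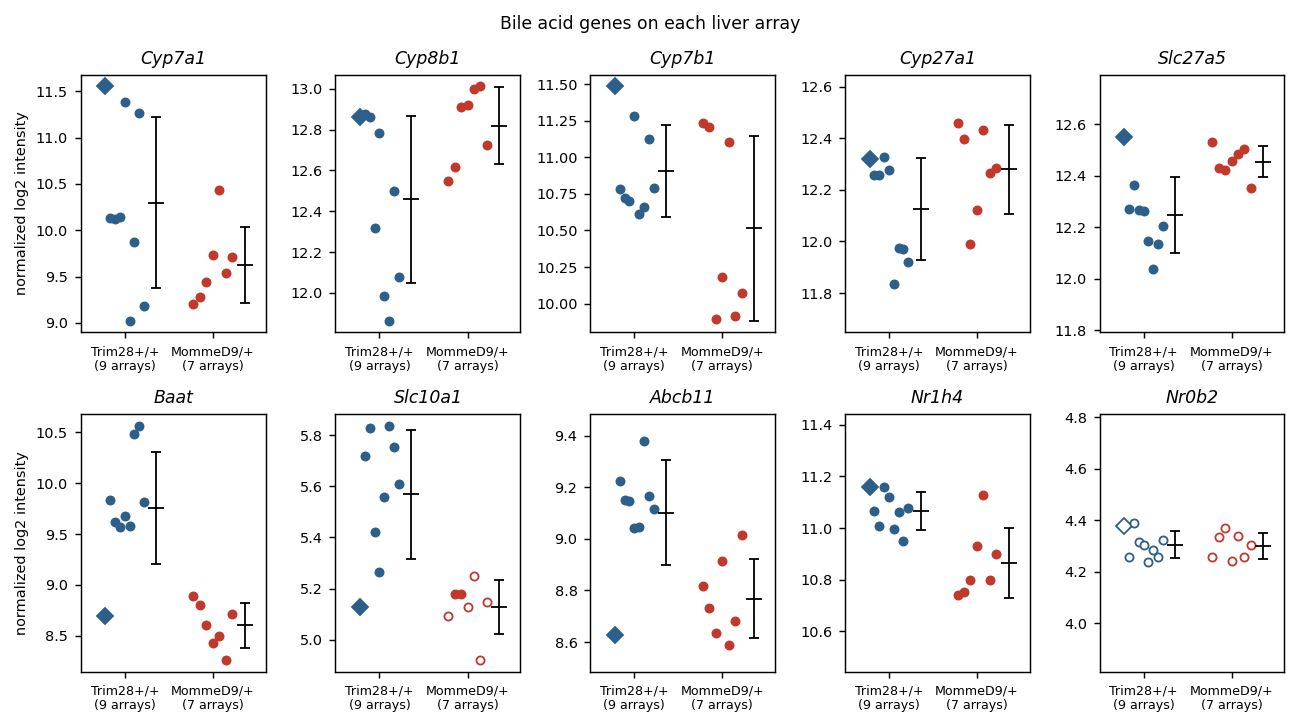
Normalized log2 intensity (vertical axes, each with its own range) of the 10 members on the 9 Trim28+/+ arrays (blue) and the 7 Trim28MommeD9/+ arrays (red). Diamonds mark Trim28+/+ replicate 1, open symbols mark arrays with a detection p of 0.01 or more, and black bars give the mean and SD. For Baat, Slc10a1 and Abcb11 the diamond lies among the red points, and for Cyp7a1 and Cyp7b1 it is the highest point.

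Baat, the enzyme that conjugates activated bile acids, had the largest difference of the members. Its level was lowest at 8.26, with a median of 8.61 and a highest value of 8.89, on the Trim28MommeD9/+ arrays. On the Trim28+/+ arrays it ran from 8.70 through a median of 9.68 to 10.57. The log2 fold change was -1.16 (standard error 0.20, adjusted p = 0.00145 from limma), a 2.23-fold lower level. All 7 Trim28MommeD9/+ arrays lay below 8 of 9 Trim28+/+ arrays, and the remaining one, replicate 1 at 8.70, lay within their range. Among the Trim28+/+ arrays, replicates 7 and 8 were the highest at 10.48 and 10.57, and the other 6 lay between 9.57 and 9.83. The fit with background sets as a block compares the Trim28MommeD9/+ arrays with replicate 1, and its value was -0.09 (standard error 0.32, adjusted p = 0.982).

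Slc27a5, which attaches coenzyme A to bile acids before Baat acts on them, moved the other way. It had a lowest level of 12.35, a median of 12.46 and a highest level of 12.53 on the Trim28MommeD9/+ arrays, against 12.04, 12.26 and 12.55 on the Trim28+/+ arrays. The log2 fold change was 0.21 (standard error 0.06, adjusted p = 0.0204 from limma). Of the Trim28MommeD9/+ arrays, 6 of 7 lay above each Trim28+/+ array other than replicate 1, which had the highest level of all 16 arrays. The call was lost with scaling to a common median (0.01, adjusted p = 0.967) and with presumptive technical pairs (adjusted p = 0.136), and the sign turned with background sets as a block (-0.09). Slc27a5 was the only member on chromosome 7, the chromosome of Trim28, and in the RefSeq annotation of GRCm38.p6 2 genes, Zbtb45 and Gm31649, stood between them.

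Of the transporters, Abcb11, the canalicular pump that exports bile salts, was lower in Trim28MommeD9/+ livers. Its lowest, median and highest levels were 8.59, 8.73 and 9.01 on the Trim28MommeD9/+ arrays and 8.63, 9.15 and 9.38 on the Trim28+/+ arrays. The log2 fold change was -0.33 (standard error 0.09, adjusted p = 0.0138 from limma), a 1.26-fold lower level. The groups were separate except for Trim28+/+ replicate 1 at 8.63, which was lower than 6 of 7 Trim28MommeD9/+ arrays. With background sets as a block the sign turned (0.14, standard error 0.14), and with presumptive technical pairs the adjusted p was 0.076.

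Slc10a1, the sodium-dependent carrier that takes up conjugated bile acids, was read by a dim probe. Its deposited intensity was 50.5 to 59.1 on the Trim28MommeD9/+ arrays, where it was detected on 2 of 7, and 65.3 to 105 on the Trim28+/+ arrays, where it was detected on 9 of 9. The normalized level was 4.92, 5.15 and 5.25 (lowest, median and highest) on the Trim28MommeD9/+ arrays and 5.13, 5.61 and 5.84 on the Trim28+/+ arrays. The log2 fold change was -0.44 (standard error 0.10, adjusted p = 0.0056 from limma). The probe passed the detection filter only through the Trim28+/+ arrays, on which it is brighter, so a difference was favoured by the filter. The signal also lay near the subtracted constant, which was 37.6 to 40.3 on the Trim28MommeD9/+ arrays and 42.7 to 56.2 on the Trim28+/+ arrays. Both the size and the direction of the difference are therefore uncertain. Again 8 of 9 Trim28+/+ arrays lay above all Trim28MommeD9/+ arrays and replicate 1, at 5.13, lay among them. With background sets as a block the value was 0.00163 (adjusted p = 1.00), and with presumptive technical pairs the adjusted p was 0.0837. At this signal the size of the change rests on the background correction: it was -0.26 without it and -0.85 in the values scaled by the authors.

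Nr1h4, which encodes the bile acid receptor FXR, was lower in Trim28MommeD9/+ livers by a small margin. The level was 10.74, 10.80 and 11.13 (lowest, median and highest) against 10.95, 11.07 and 11.16 on the Trim28+/+ arrays. The log2 fold change was -0.20 (standard error 0.06, adjusted p = 0.0165 from limma). In all, 6 of 7 Trim28MommeD9/+ arrays lay below every Trim28+/+ array, and replicate 5 was the exception at 11.13. Here Trim28+/+ replicate 1 was at the top of its group at 11.16, and with background sets as a block the direction was kept (-0.29, standard error 0.12, adjusted p = 0.58). With presumptive technical pairs the adjusted p was 0.105. The probe of Nr0b2, the repressor SHP that FXR induces, was not above background on any of the 16 arrays (detection p from 0.337 to 0.941), so no level or difference can be given for it.

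**Figure D2:**
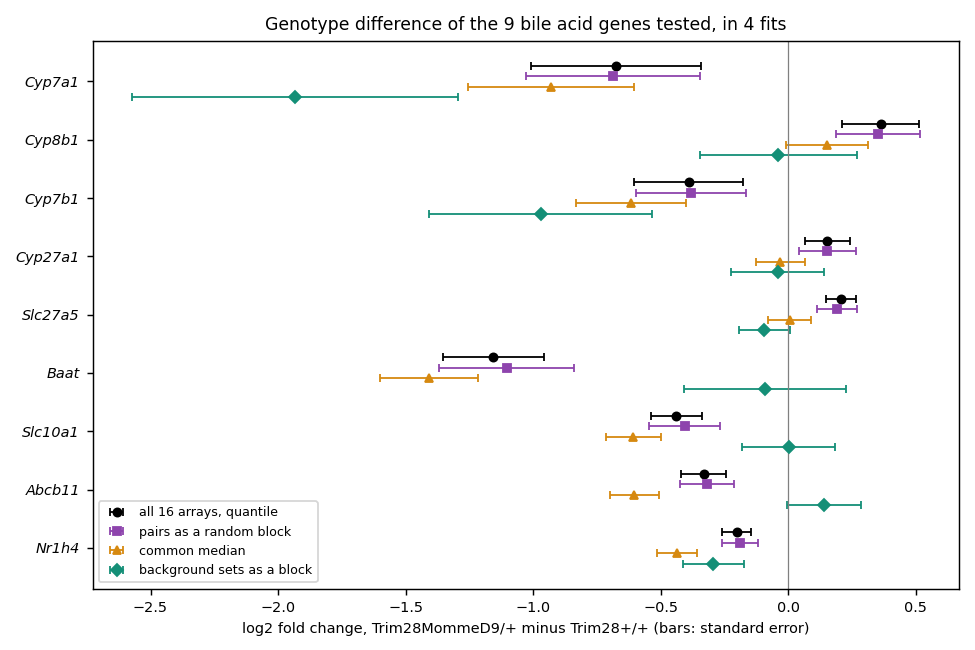
Log2 fold change of the 9 members tested (horizontal axis, Trim28MommeD9/+ minus Trim28+/+, bars give the standard error) in 4 fits. With background sets as a block, Baat and Slc10a1 moved to -0.09 and 0.00163, while Cyp7a1 moved to -1.93.

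Cyp7a1, the rate-limiting enzyme, had the widest spread of the members on the Trim28+/+ arrays. Its lowest, median and highest levels were 9.02, 10.13 and 11.55 on these arrays and 9.21, 9.53 and 10.44 on the Trim28MommeD9/+ arrays. The mean was lower in Trim28MommeD9/+ (9.62 ± 0.41, SD, n = 7 arrays) than in Trim28+/+ (10.30 ± 0.92, SD, n = 9 arrays), but the difference did not pass the test (-0.68, 95% interval -1.38 to 0.02, adjusted p = 0.151 from limma). All 7 Trim28MommeD9/+ arrays lay within the range of the Trim28+/+ arrays. The Trim28+/+ arrays fell into 3 levels. Replicates 1, 5 and 8 read 11.55, 11.38 and 11.27, replicates 2, 3, 4 and 7 read 9.87 to 10.14, and replicates 6 and 9 read 9.02 and 9.18. Set against Trim28+/+ replicate 1 alone, by the block for background sets, the value was -1.93 (standard error 0.64, adjusted p = 0.541).

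Cyp7b1, the oxysterol hydroxylase of the alternative route, split the Trim28MommeD9/+ arrays. Replicates 1, 2 and 5 read 11.23, 11.21 and 11.11, and replicates 3, 4, 6 and 7 read 9.89, 10.19, 9.91 and 10.07. The 4 low arrays lay below every Trim28+/+ array, which ran from 10.61 through a median of 10.78 to 11.49. The mean difference was -0.39 (95% interval -0.84 to 0.06, adjusted p = 0.194 from limma) and did not pass the test. Trim28+/+ replicate 1 was the highest of its group at 11.49, and with background sets as a block the value was -0.97. The SD was 0.63 on the Trim28MommeD9/+ arrays and 0.31 on the Trim28+/+ arrays. Cyp7b1 and Nr1h4 were the 2 of 9 members with the larger SD in Trim28MommeD9/+, and 29.6% of all genes tested had it. These spreads are descriptions, since arrays may share a mouse.

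**Figure D3:**
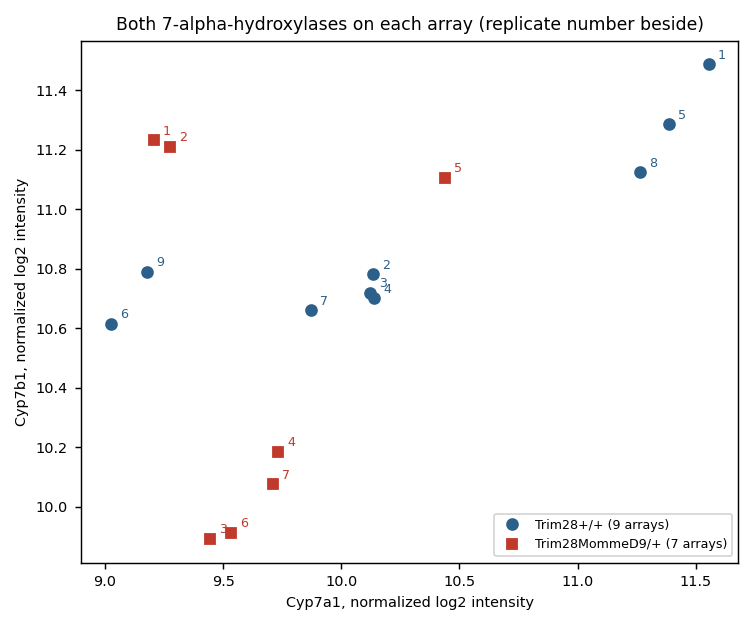
Normalized log2 intensity of Cyp7a1 (horizontal axis) and Cyp7b1 (vertical axis) on each array, Trim28+/+ as blue circles and Trim28MommeD9/+ as red squares, with the replicate number beside each point. Trim28+/+ replicates 1, 5 and 8 are the highest of their group for both genes. Trim28MommeD9/+ replicates 1 and 2 have the highest Cyp7b1 and the lowest Cyp7a1 of their group.

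Within the Trim28+/+ group, Cyp7a1 and Cyp7b1 were highest on the same arrays, replicates 1, 5 and 8. In the Trim28MommeD9/+ group this order did not hold. Replicates 1 and 2 had the lowest Cyp7a1 of their group (9.21 and 9.28) and the highest Cyp7b1, and only replicate 5 was high for both. When arrays were joined within each genotype by the similarity of all 7302 genes, the joined arrays lay close to each other for both enzymes. The 3 Trim28MommeD9/+ pairs differed by at most 0.09 for Cyp7a1 and 0.11 for Cyp7b1, within ranges over the arrays of 1.23 and 1.34. The 4 Trim28+/+ pairs differed by at most 0.27 and 0.17, within ranges of 2.53 and 0.87. Other members were not as close within the Trim28+/+ pairs. The largest difference was 0.91 of a range of 1.87 for Baat, 0.49 of 0.71 for Slc10a1, 0.36 of 0.49 for Cyp27a1 and 0.17 of 0.21 for Nr1h4. The pair of replicates 4 and 7 had a correlation of 0.473 over all genes, the lowest of the 7 pairs. The labels do not give these pairs, which rest on the likeness of the arrays themselves. Trim28MommeD9/+ replicates 1 and 2 (correlation 0.862) were such a pair, as were Trim28+/+ replicates 5 and 8 (0.635). The order of the 2 enzymes in either group may therefore come from fewer mice than arrays, and a difference between genotypes in this order was not tested.

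Cyp8b1, which sets the share of cholic acid, had a lowest level of 12.55, a median of 12.91 and a highest level of 13.01 on the Trim28MommeD9/+ arrays. On the Trim28+/+ arrays these were 11.86, 12.50 and 12.88. Of the Trim28MommeD9/+ arrays, 4 of 7 lay above every Trim28+/+ array, but the difference did not pass the test (0.36, 95% interval 0.05 to 0.68, adjusted p = 0.0905 from limma). It passed without Trim28+/+ replicate 1 (0.41, adjusted p = 0.0493), which read 12.86, and was -0.04 with background sets as a block. The direction was thus opposite to that of the mean of Cyp7a1, and neither was called.

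Cyp27a1, the mitochondrial sterol hydroxylase that opens the alternative route, differed little at any of its 3 probes. The probe with the highest mean read 11.99, 12.29 and 12.46 on the Trim28MommeD9/+ arrays and 11.84, 12.26 and 12.33 on the Trim28+/+ arrays (lowest, median and highest). The log2 fold change was 0.15 (95% interval -0.03 to 0.34, adjusted p = 0.215 from limma). The other 2 probes gave 0.16 (adjusted p = 0.203) and 0.06 (adjusted p = 0.63). Trim28+/+ replicate 1 read 12.32 at the first probe. On the Trim28+/+ arrays, replicates 6 to 9 lay below 12.00 at the first probe and replicates 1 to 5 above it.

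When arrays were scaled to the same median and not quantile normalized, this moved the median of all genes from 0.05 to -0.19, with 35 genes higher and 2526 lower (0.479% and 34.6%). Among the members, 0 were then higher and 6 lower, as Cyp7a1 (-0.93, adjusted p = 0.0321 from limma) and Cyp7b1 (-0.62, adjusted p = 0.0307) joined the 4 above. The median of the 9 members was -0.60 with this scaling, and that of the 8 hepatocyte markers tested was -0.56. In the values scaled by the authors 364 genes were higher and 1034 lower, or 4.98% and 14.2%, with 1 member higher and 4 lower. With array weights (12.8% and 13% of all genes) and at an unadjusted p under 0.025 (15.3% and 13.8%), 1 member was higher and 4 were lower.

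Promoters are shown for the members called lower that had an entry. RefSeq entries of GRCm38.p6, which run from 250 bases before to 50 after a gene start, were found for 6 of 10 members, and Slc10a1 had 2. Baat, Cyp7a1, Cyp7b1 and Slc27a5 had none. The letters AGGTCA, a core that many nuclear receptors bind, were searched on both strands, as were its inverted repeat spaced by 1 base, the preferred arrangement of FXR, and TATAAA. Each inverted repeat holds the core by construction. Capitals mark the core on either strand. The entries lie on the minus strand at chr2:69342567-69342866 (Abcb11), chr12:80968656-80968955 and chr12:80968030-80968329 (Slc10a1, first and second) and chr10:89506609-89506908 (Nr1h4), and are written 5′ to 3′ along the gene.
Abcb11: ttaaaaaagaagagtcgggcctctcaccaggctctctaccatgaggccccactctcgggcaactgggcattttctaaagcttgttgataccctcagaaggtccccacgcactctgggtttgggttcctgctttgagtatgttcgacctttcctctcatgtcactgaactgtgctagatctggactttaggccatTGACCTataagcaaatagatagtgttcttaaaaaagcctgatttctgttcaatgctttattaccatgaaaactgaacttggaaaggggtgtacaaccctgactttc
Slc10a1, first entry: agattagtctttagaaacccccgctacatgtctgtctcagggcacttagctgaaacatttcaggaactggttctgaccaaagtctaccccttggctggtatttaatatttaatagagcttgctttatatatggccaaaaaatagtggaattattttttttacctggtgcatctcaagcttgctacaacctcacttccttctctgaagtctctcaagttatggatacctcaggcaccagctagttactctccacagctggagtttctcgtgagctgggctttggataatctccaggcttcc
Slc10a1, second entry: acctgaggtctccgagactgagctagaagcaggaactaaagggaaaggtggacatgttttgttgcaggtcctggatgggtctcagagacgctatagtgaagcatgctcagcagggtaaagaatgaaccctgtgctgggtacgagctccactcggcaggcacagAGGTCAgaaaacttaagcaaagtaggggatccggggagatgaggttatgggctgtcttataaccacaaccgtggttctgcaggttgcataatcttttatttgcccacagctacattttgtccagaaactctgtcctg
Nr1h4: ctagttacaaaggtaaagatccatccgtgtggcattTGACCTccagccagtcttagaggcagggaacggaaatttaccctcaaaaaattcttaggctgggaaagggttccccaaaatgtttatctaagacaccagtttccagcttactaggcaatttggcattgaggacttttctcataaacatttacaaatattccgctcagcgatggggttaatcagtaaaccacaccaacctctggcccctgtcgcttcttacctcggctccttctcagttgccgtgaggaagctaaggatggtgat

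The core stood once in the Abcb11 entry, starting at base -56 from the gene start, once in the second Slc10a1 entry at -87 and once in the Nr1h4 entry at -214. It was not found in the windows of Cyp8b1, Cyp27a1, Nr0b2 or the first Slc10a1 entry, and 16.3% of all 32851 promoters held it. None of the 7 entries held the inverted repeat in its exact letters, which 0.00913% of all promoters held. Inverted repeats with a mismatch were neither searched for nor counted over all promoters. At its core the Abcb11 entry reads aggccatTGACCT, which is such a near match. How often near matches occur in the other entries or in all promoters was not counted, and binding by FXR was not tested. TATAAA stood in the entries of Cyp8b1 and Nr0b2, starting at -31 and -28, and in the first Slc10a1 entry at -128 on the opposite strand (13.6% of all promoters). The 7 entries held 2 to 10 CpG dinucleotides. The most stood in Cyp27a1, and 43.5% of all promoters held at least as many.

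Other genes of the pathway were counted from 5 lists with 45 genes, of which 31 were tested. Of these, 3 were called higher and 3 lower, with 25 not called, which are shares of 9.68% in each direction beside 10.4% and 11.4% of all genes. Their median log2 fold change was 0.08. Without Trim28+/+ replicate 1, 4 were higher and 5 lower, beside 13.4% and 13.3% of all genes. Without Trim28MommeD9/+ replicate 1, 3 were higher and 5 lower, beside 644 and 778 of all 7302 genes.

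Of 9 further synthesis genes tested, 1 was higher and 0 lower. Abcd3, a transporter of the peroxisome membrane, where the side chain is shortened, was higher (log2 fold change 0.34, standard error 0.08, adjusted p = 0.00881 from limma). It ran from 12.43 to 12.59 on the Trim28MommeD9/+ arrays and from 11.75 to 12.42 on the Trim28+/+ arrays. Its value was 0.21 with background sets as a block, and 0.14 (adjusted p = 0.343) with a common median. Hsd3b7, Acox2, Hsd17b4 and Scp2, which modify the ring or the side chain, had values from 0.04 to 0.13 and did not pass, although a second probe of Hsd3b7 did (0.15, adjusted p = 0.0399 when every probe was tested). Cyp46a1, Ch25h, Akr1d1 and Amacr had no probe detected on 3 or more arrays.

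Of the 3 other carriers of the sinusoidal membrane, Slco1b2, an uptake carrier of organic anions and unconjugated bile acids, was lower (-0.53, standard error 0.14, adjusted p = 0.0124 from limma). It ran from 8.98 to 9.86 on the Trim28MommeD9/+ arrays and from 9.44 to 10.54 on the Trim28+/+ arrays, with replicate 1 as the lowest Trim28+/+ array, and its value was -0.02 with background sets as a block. The call was also lost with presumptive technical pairs (adjusted p = 0.0893). Slc51b, a subunit of the efflux carrier OST, was higher (0.58, standard error 0.17, adjusted p = 0.0218 from limma), with 7.24 to 7.87 against 6.41 to 7.54. It kept its direction when background sets were a block (0.93, adjusted p = 0.577), and the adjusted p was 0.0502 with presumptive technical pairs. Abcc3, a further efflux pump, had a value of 0.08.

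Of 5 other canalicular genes, Abcb4, the phosphatidylcholine flippase of bile, was lower (-0.19, standard error 0.06, adjusted p = 0.0391 from limma) and 3 of 7 Trim28MommeD9/+ arrays lay below every Trim28+/+ array. The call was lost with presumptive technical pairs (adjusted p = 0.101). The sterol transporters Abcg5 and Abcg8 had values of 0.10 and 0.45, and the conjugate pump Abcc2 had 0.16 at one probe and -0.40 at another, none of which passed. Of 3 detoxification genes, Cyp2b10, a cytochrome P450 induced by foreign compounds, was higher (1.22, standard error 0.31, adjusted p = 0.0109 from limma), with 7.96 to 8.59 within the Trim28+/+ range of 6.39 to 8.76. Cyp3a11 (0.25) and Sult2a8 (-0.43) did not pass.

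Of 11 regulators tested, 0 were higher and 1 was lower. Hnf4a, a transcription factor of hepatocyte identity and also one of the 8 hepatocyte markers, ran from 9.13 to 9.55 on the Trim28MommeD9/+ arrays and from 9.53 to 10.56 on the Trim28+/+ arrays (-0.55, standard error 0.12, adjusted p = 0.0041 from limma). Trim28+/+ replicate 1 was again the lowest of its group, and the value was -0.14 with background sets as a block. Foxa2, Nr1i2, Klb and Prox1 had values from -0.35 to -0.24, and Nr1h3, Nr5a2, Rxra, Nr1i3, Ppara and Mafg had values from 0.01 to 0.19. None of these 10 passed, and a second probe of Nr5a2 went the other way (-0.27, adjusted p = 0.10 when every probe was tested). Fgfr4, Gpbar1 and Fgf15 had no probe detected on 3 or more arrays.

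**Figure D4:**
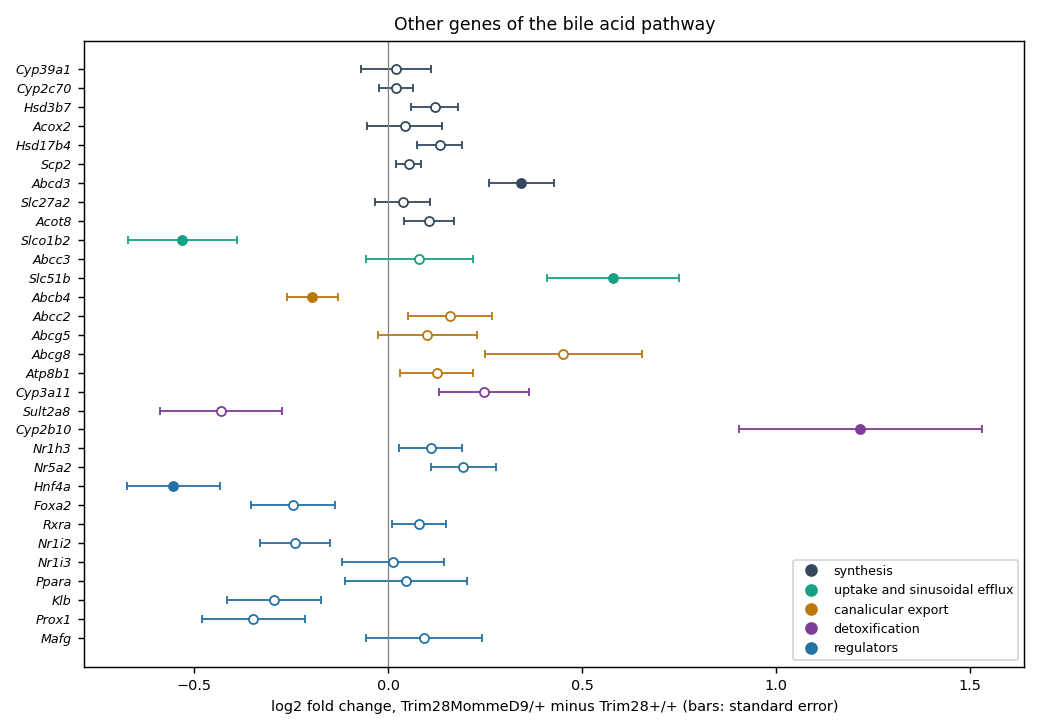
Log2 fold change (horizontal axis, Trim28MommeD9/+ minus Trim28+/+, bars give the standard error) of the 31 other pathway genes tested, coloured by list. Filled points mark the 6 genes with an adjusted p under 0.05, of which 3 are above and 3 below zero.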

How the data were processed

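Liver RNA was measured on 16 arrays of the Illumina MouseRef-8 v2.0 BeadChip type, grouped by the genotype in the labels. The authors deposited raw intensity values, with no background subtraction or normalization, each probe with a detection p-value, and a second table of intensity values, scaled by the authors to a common mean after a constant was subtracted. Data were compiled in BeadStudio and analysed in GenomeStudio, with versions not given in the sources used here. Symbols were taken from the platform annotation and updated by Entrez identifier through RefSeq (23962 of 25697 probes).

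The neqc function of limma 3.58.1 (R 4.3.3, offset 16) corrected, quantile normalized and log2 transformed the intensities. Probes with a detection p under 0.01 on at least 3 arrays were kept, and each of 7302 genes was read at its probe of highest mean. Genotypes were compared with limma's moderated test with an intensity trend and Benjamini-Hochberg adjustment over all genes. The difference score of the study was not run. The model was tested on simulated data. The number of arrays limits the precision.

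Presumptive technical pairs were the best matching of arrays within a genotype and entered as a random block (correlation 0.527). Background sets were split at the largest gap in the subtracted constant. All members are named, with called genes of 5 other pathway lists (at most 4 of a list by smallest p). Pathway genes named without a call were added after their values were seen. The members and lists were chosen with earlier results of these data known. Python 3.11.15 was used for summaries.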

Additional observations from a re-analysis of the deposited data

Results flagged for a closer look

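Among 18 groups of arrays (9 members in each genotype), 2 had 1 array apart from the rest by its gap to the nearest array, and chance picks about 1 group in 20. Cyp7a1 read 10.44 on Trim28MommeD9/+ replicate 5 and 9.21 to 9.73 on the other 6 arrays of that genotype. Abcb11 read 8.63 on Trim28+/+ replicate 1 and 9.04 to 9.38 on the other 8. The cause was not tested.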

How the results depend on the processing

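Of 144 member values with 1 array left out, 143 kept direction and side of the threshold; the exception was Cyp8b1 without Trim28+/+ replicate 1. Members called lower stayed at 4 to 4 and higher ran from 1 to 2, the pathway lists from 2 to 4 higher and 2 to 5 lower (5 without replicate 1 of either genotype), and all genes from 502 (without Trim28MommeD9/+ replicate 6) to 981 higher and 664 to 974 lower. With background sets as a block, 0 members were higher and 0 lower (adjusted p under 0.05 in limma), 0 and 0 pathway genes, and 2 and 1 of all genes. Signs turned for Cyp8b1 (-0.040), Cyp27a1 (-0.041), Slc27a5 (-0.094), Slc10a1 (0.00163) and Abcb11 (0.14). The direction was kept for Cyp7a1 (-1.93), Cyp7b1 (-0.97), Nr1h4 (-0.29) and Baat (-0.09). All of these values rest on Trim28+/+ replicate 1. With presumptive technical pairs, 0 members were higher and 1 lower (Baat, adjusted p = 0.0289), 2 pathway genes were higher (Abcd3 and Cyp2b10) and 1 lower, and 176 and 311 of all genes were called. With a common median, 0 members were higher, Cyp27a1 turned to -0.032, 1 pathway gene was higher and 10 lower, and 35 and 2526 of all genes were called. Pathway genes lower were 6 with array weights, 7 with the values scaled by the authors (364 of all genes higher) and 6 at an unadjusted p under 0.025. With no filter on dim probes 461 genes were higher. With the replicate number as a block over 7 numbers, 0 members were higher and 2 lower (Baat and Slc10a1), 3 pathway genes were higher and 1 lower, and 162 and 379 of all genes (2.22% and 5.19%) were called. Same-numbered arrays had correlations of -0.394 to 0.479, and 2 of 7 matched their own number best, and no pairing was taken from the numbers. Causes of these changes were not tested. Slc10a1 had no value when detection on all 16 arrays was asked for, which left 3 members lower. Slc10a1 and Nr0b2 were limited by signal near background.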
